A study of Rattus norvegicus with 38 samples.

Results

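Chlorendic Acid and Diethylhexylphthalate were the 2 chemicals with the most changed liver miRNAs among 8 tested in male Fischer F344 rats. They were set against each other here, miRNA by miRNA, rather than each against control. The animals were the 4 whose arrays are titled for Chlorendic Acid and the 4 titled for Diethylhexylphthalate, 8 of 38 in the series, with 1 array per animal. Chlorendic Acid was fed at 1250 ppm in the diet and Diethylhexylphthalate at 12000 ppm, both for 90 days, and 5 rats on control diet are given last for orientation. All rats were male F344 animals obtained at 8 weeks of age, kept 5 to a cage on powdered diet, and the labels name no other agent or allele. The labels describe each dose as carcinogenic or as the maximum tolerated one. Each chemical was fed at a single dose, so chemical and dose cannot be told apart in any difference between the diets. The array holds probes for 350 miRNAs. Tested were the 129 that every array of some group had detected, counting all 9 groups, and 99 of them were seen on each of the 8 arrays compared.

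Chlorendic acid is a chlorinated dicarboxylic acid used to make flame-retardant resins. Diethylhexylphthalate is a plasticizer that activates the nuclear receptor PPAR-alpha in rodent liver and enlarges the hepatocyte's peroxisomes. A miRNA is a short RNA that guides the silencing complex to messenger RNAs, chiefly through pairing of its seed, the bases 2 to 8 from its 5′ end, so miRNAs with the same seed can share targets. Many miRNAs are cut from a common precursor RNA or lie within the introns of a host gene, and members of such a cluster can differ in mature level because each is processed and degraded on its own.

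Some of the miRNAs called between the diets share a seed, and their mature sequences are shown for that reason, 5′ to 3′, with the seed in capitals. The sequences are RefSeq's for the rat (GRCr8). Array names without an arm were read as the arm that the older name stood for. The first set shares 1 seed, that of the miR-29 family, and all 3 members were lower with Chlorendic Acid.
miR-29a: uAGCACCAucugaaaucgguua
miR-29b: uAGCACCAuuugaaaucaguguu
miR-29c: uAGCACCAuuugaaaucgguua

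The next set carries the seed of miR-17 and was also lower with Chlorendic Acid.
miR-17: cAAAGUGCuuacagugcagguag
miR-20a: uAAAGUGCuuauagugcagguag
miR-93: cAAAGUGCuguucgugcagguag

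miR-107 and miR-103 have the same seed and differ at 1 of 23 positions, but only miR-107 passed the test.
miR-107: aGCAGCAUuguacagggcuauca
miR-103: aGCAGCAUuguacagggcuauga

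miR-15b and miR-497 share a seed and differ at 6 of 22 positions, and they differed between the diets in opposite directions.
miR-15b: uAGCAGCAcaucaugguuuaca
miR-497: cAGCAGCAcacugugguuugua

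The paralogs miR-23a and miR-23b differ at 1 of 21 positions and were both higher with Chlorendic Acid.
miR-23a: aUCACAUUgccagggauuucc
miR-23b: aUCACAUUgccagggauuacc

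The last set holds the called miRNAs with the largest differences outside these families.
miR-34a: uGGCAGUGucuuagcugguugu
miR-139-5p: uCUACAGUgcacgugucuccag
miR-505: gUCAACACuugcugguuucc
miR-193: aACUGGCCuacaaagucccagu
miR-96: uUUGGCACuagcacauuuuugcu
miR-221: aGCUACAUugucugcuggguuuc

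A level is the log2 of a miRNA's signal over the array's own 75th percentile, with a floor at -5.49 for signals too dim to order. The 8 arrays detected 122, 135, 131 and 134 miRNAs with Chlorendic Acid and 132, 100, 122 and 127 with Diethylhexylphthalate. The mean difference of 10.3 detected miRNAs did not pass an exact two-sided permutation test (p = 0.257, where 0.0286 is the smallest p that 4 against 4 can give). miR-122, the miRNA that defines hepatocytes, was detected on all 8 arrays. Within the control group, replicate 1 was the lowest of the 5 arrays for 74 of the 129 miRNAs, which moves the differences against control directly, and the direct comparison only through the spread that the fit pools over all 38 arrays. The arrays lay on 6 slides, and slide 4 alone held both chemicals, with 2 Chlorendic Acid arrays, 1 Diethylhexylphthalate array and 1 control array.

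Chlorendic Acid livers differed from Diethylhexylphthalate livers in 25 of 129 miRNAs (19.4%) at a limma adjusted p under 0.05, the threshold used throughout. Of these, 13 (10.1%) were higher and 12 (9.3%) lower with Chlorendic Acid, and 39 had an unadjusted p under 0.05. Against control, Chlorendic Acid was called for 38 miRNAs (29.5%), 26 higher (20.2%) and 12 lower (9.3%), and Diethylhexylphthalate for 19 (14.7%), 14 higher (10.9%) and 5 lower (3.88%). These counts share arrays: both rest on the same 5 control arrays, and each uses 4 of the arrays of the direct comparison. The median difference over all 129 was 0.022 on the log2 scale. The 2 sets of 4 arrays did not overlap for 34 of 129 miRNAs, among them 21 of the 25. On slide 4, the difference between the 2 Chlorendic Acid arrays and the Diethylhexylphthalate array had the sign of the full difference for all 25, although these 3 arrays are part of it.

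The split of higher and lower depended on the scaling. It was 2 higher and 6 lower with normexp background correction, which moved the median difference to -0.096, and 22 higher and 11 lower with quantile normalization. With the authors' own values it was 14 and 20. The 7 calls kept with normexp were miR-107, miR-29a, miR-29b, miR-29c, miR-20a, miR-23b and miR-146a. Scaling over all probes ended the calls of miR-150, miR-23b, miR-15b, miR-29c, miR-93, miR-505, miR-497, miR-182 and miR-23a. The authors' values ended those of miR-23b, miR-99b, miR-15b, miR-505 and miR-23a, and quantile normalization those of miR-93 and miR-497. The splits against control moved too. For Chlorendic Acid, 19 were higher and 23 lower with the authors' values, 23 higher and 21 lower without control replicate 1 and likewise without Chlorendic Acid replicate 4, and 19 higher and 7 lower without Chlorendic Acid replicate 3. For Diethylhexylphthalate, 28 were higher and 1 lower with total gene signal, 11 higher and none lower with slide as a fixed block, and 8 higher and none lower without its replicate 1. Between the diets, the count without Chlorendic Acid replicate 3 was 16 (9 higher and 7 lower), against 21 to 27 without any 1 of the other 7 arrays.

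**Figure D1:**
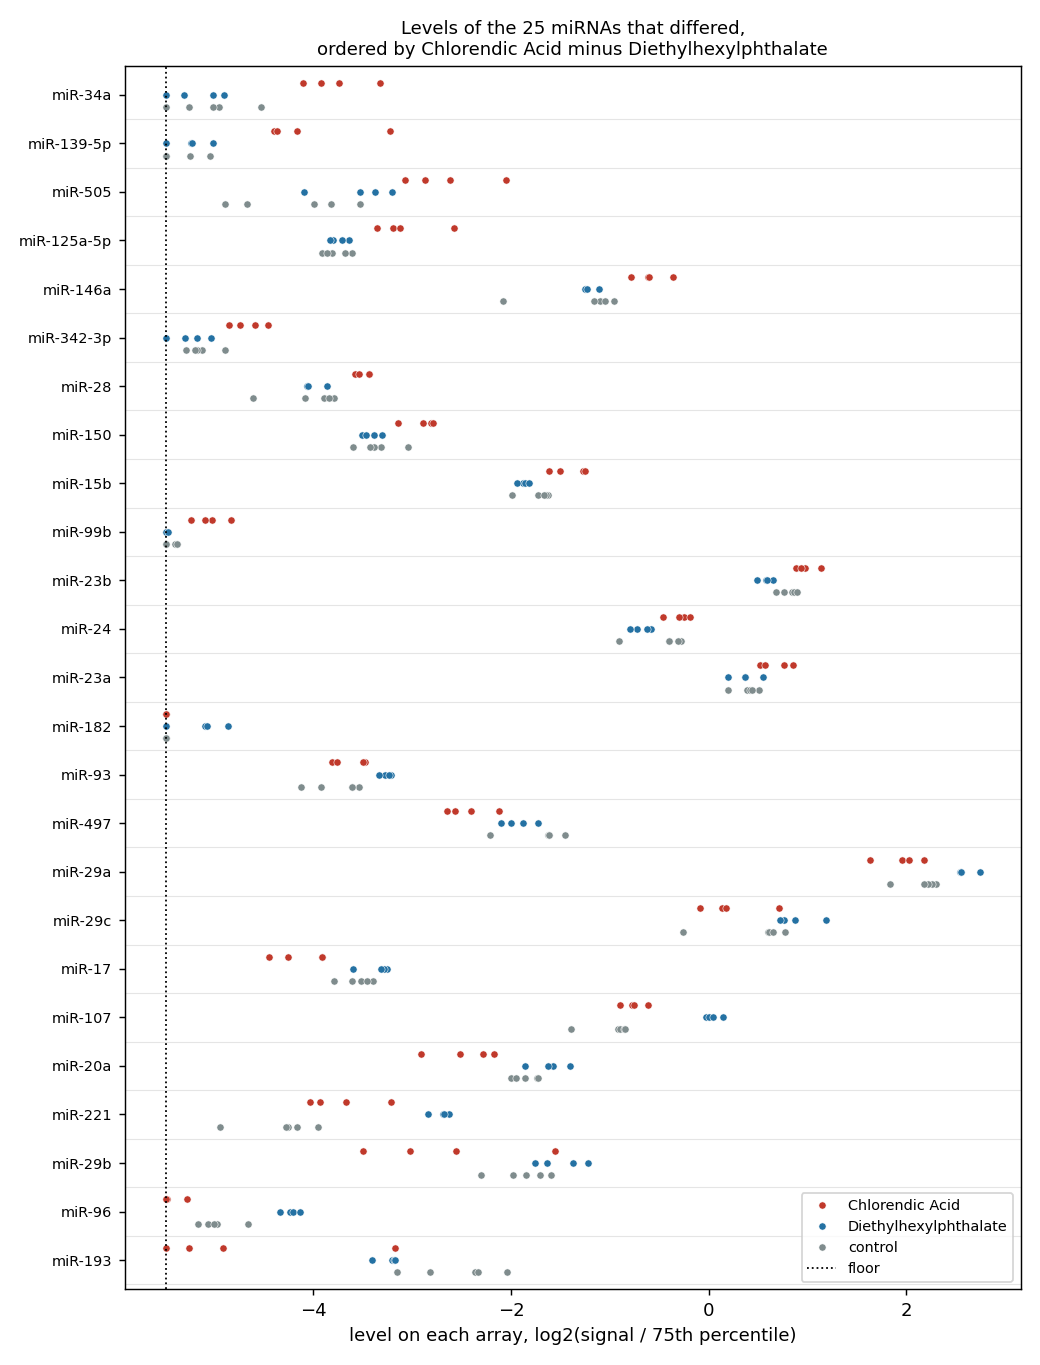
Level of the 25 miRNAs that differed on each Chlorendic Acid array (n = 4), Diethylhexylphthalate array (n = 4) and control array (n = 5), as log2 of signal over the array's 75th percentile. The rows run from the miRNA highest with Chlorendic Acid relative to Diethylhexylphthalate to the lowest, and the dotted line marks the floor at -5.49. Chlorendic Acid replicate 4 lies just above the Diethylhexylphthalate arrays for miR-193 and among them for miR-29b.

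Among the miRNAs higher with Chlorendic Acid, miR-34a, whose gene is switched on by p53 after DNA damage and other stress, had the largest difference. Its hairpin lies at chr5:165815952-165816053 on the plus strand (GRCr8). Its levels were -4.10, -3.92, -3.74 and -3.32 in Chlorendic Acid livers, -5.01, -5.30, -4.90 and -5.49 in Diethylhexylphthalate livers and -5.26, -5.49, -4.53, -4.96 and -5.02 in control livers. All 4 Chlorendic Acid animals lay above all others, and Diethylhexylphthalate animals lay within the control range. The difference was 1.41 ± 0.23 (log2, SE; adjusted p = 2.71e-05), a 2.65-fold higher signal. Against control it was 1.28 for Chlorendic Acid and -0.13 for Diethylhexylphthalate (adjusted p = 8.3e-05 and 0.752). Diethylhexylphthalate replicate 4 was at the floor, and 3 of 4 arrays on that diet detected miR-34a, so the fold depends in part on the floor. The call between the diets was lost with normexp, and the smallest difference in any fit was 0.38.

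miR-139-5p, described as a tumour suppressor in human liver cancer, lies within the span of Pde2a, a cyclic nucleotide phosphodiesterase gene (chr1:165290859-165290926). Its levels were -4.16, -4.40, -3.23 and -4.36 with Chlorendic Acid, -5.49, -5.01, -5.24 and -5.23 with Diethylhexylphthalate and -5.49, -5.49, -5.49, -5.04 and -5.25 in controls. Every Chlorendic Acid array was clear of the others, with replicate 3 the highest, while Diethylhexylphthalate and control arrays were at or near the floor. The difference was 1.21 ± 0.21 (adjusted p = 5.8e-05). Its other probe, near the floor, differed by 0.12 in the same direction.

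The mean of miR-505 was above that of controls on both diets, and further above with Chlorendic Acid. It stood at -2.61, -3.08, -2.05 and -2.87 in Chlorendic Acid livers, against -4.10, -3.20, -3.37 and -3.53 in Diethylhexylphthalate livers and -4.90, -4.67, -3.99, -3.53 and -3.82 in control livers. The 2 sets of treated arrays did not overlap, and the difference was 0.90 ± 0.29 (adjusted p = 0.0237). Only the Chlorendic Acid difference from control passed (1.53, adjusted p = 0.000109), whereas that of Diethylhexylphthalate was 0.63 (adjusted p = 0.128). The direct call was lost without Chlorendic Acid replicate 3 (adjusted p = 0.132) or Diethylhexylphthalate replicate 1 (adjusted p = 0.112).

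A cluster on chromosome 1, within the span of Spaca6, encodes miR-99b, let-7e and miR-125a, whose hairpins lie 96 and 354 bases apart. miR-125a-5p (chr1:67350675-67350759) had levels of -3.20, -3.36, -2.58 and -3.12 with Chlorendic Acid, -3.80, -3.64, -3.83 and -3.71 with Diethylhexylphthalate and -3.91, -3.81, -3.86, -3.61 and -3.68 in controls. Chlorendic Acid animals were all above the rest, by 0.68 ± 0.14 against Diethylhexylphthalate (adjusted p = 0.000486). Diethylhexylphthalate differed from control by 0.030 only (95% interval -0.24 to 0.30). A dimmer probe of miR-125a-5p differed by 0.23. miR-99b was near the floor in every group and differed by 0.44 (adjusted p = 0.00693), a direction that reversed to -0.07 with normexp. Its call was lost without Chlorendic Acid replicate 3 (adjusted p = 0.0521). let-7e, at -2.60, -2.72, -2.28 and -2.57 with Chlorendic Acid and -2.77, -2.80, -2.96 and -2.83 with Diethylhexylphthalate, did not overlap but missed the threshold (0.30, adjusted p = 0.121). Of 7 tested members of the miR-99, miR-10 and miR-125 list, miR-125a-5p and miR-99b were higher and the other 5 were not called. Beside this, 10.1% of all miRNAs were called higher. The list median was 0.15 against 0.022 over all miRNAs.

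Of the 4 tested members of the leukocyte list, miR-146a and miR-150 were higher with Chlorendic Acid and the other 2 were not called. Over all miRNAs, 10.1% were called higher. miR-146a, which dampens NF-kappaB signalling, had levels of -0.79, -0.61, -0.61 and -0.36 in Chlorendic Acid livers, -1.25, -1.25, -1.11 and -1.23 in Diethylhexylphthalate livers and -2.08, -1.10, -1.05, -1.16 and -0.96 in control livers. All 4 Chlorendic Acid animals exceeded the others, and the difference from Diethylhexylphthalate was 0.62 ± 0.17 (adjusted p = 0.00693). miR-150, abundant in mature lymphocytes, measured -3.14, -2.89, -2.81 and -2.79 against -3.39, -3.51, -3.30 and -3.46 (0.51, adjusted p = 0.0036). miR-342-3p, which is not on that list and lies within the span of Evl, measured -4.85, -4.74, -4.59 and -4.46 against -5.18, -5.49, -5.30 and -5.04 (0.59, adjusted p = 0.000894). Neither pair of groups overlapped, and both miRNAs were also higher with Chlorendic Acid than in controls (0.45 and 0.47, adjusted p = 0.00425 and 0.00389). miR-342-3p was near the floor with Diethylhexylphthalate, where 3 of 4 arrays detected it. Its call was lost with normexp, and its smallest difference between the diets in any fit was 0.0038.

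The 2 leukocyte miRNAs that were not called lay on opposite sides of 0. The granulocyte miRNA miR-223 differed by 0.21 (95% interval -0.031 to 0.45, adjusted p = 0.234). The pan-leukocyte miR-142-3p differed by -0.27 (95% interval -0.94 to 0.40, adjusted p = 0.617). miR-142-5p and miR-146b were on the array but too rarely detected to test. The summed linear level of the 4 members, in units of the 75th percentile, was 0.845 to 1.19 in Chlorendic Acid livers, 0.681 to 0.754 in Diethylhexylphthalate livers and 0.474 to 0.809 in control livers. Between the diets this sum mostly follows miR-146a, the brightest member, and so largely repeats the difference of that miRNA. In liver tissue a greater number of cells of a type and more RNA per cell cannot be told apart, and the part of leukocytes in these differences was not tested.

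The miR-23, miR-27 and miR-24 clusters on chromosomes 17 and 19 were higher with Chlorendic Acid by small amounts in 3 of 5 members. For comparison, 10.1% of all miRNAs were called higher. miR-23b had levels of 0.98, 0.89, 1.14 and 0.94 in Chlorendic Acid livers, 0.49, 0.65, 0.58 and 0.59 in Diethylhexylphthalate livers and 0.68, 0.76, 0.85, 0.86 and 0.89 in control livers. Diethylhexylphthalate arrays were all the lowest, and the difference was 0.41 ± 0.10 (adjusted p = 0.00497). miR-24 differed by 0.39 (adjusted p = 0.0288) without overlap, and miR-23a by 0.31 (adjusted p = 0.0475) with overlap. miR-27b, at -0.054, -0.035, 0.016 and -0.027 against -0.49, -0.49, -0.30 and -0.54, and miR-27a differed by 0.43 and 0.33 and were not called (adjusted p = 0.0871 and 0.167). No member was lower, and the list median was 0.39. The probes for the near-identical miR-23a and miR-23b may share signal, which was not tested. Both miR-24 and miR-23a lost the call without Diethylhexylphthalate replicate 1 or 4 or Chlorendic Acid replicate 3 or 4, and also without Chlorendic Acid replicate 2 (miR-24) or Diethylhexylphthalate replicate 3 (miR-23a). With slide as a fixed block miR-24 was not called (adjusted p = 0.0812).

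The remaining called miRNAs on the higher side were miR-28 and miR-15b. miR-28 measured -3.58, -3.43, -3.44 and -3.54 with Chlorendic Acid, against -4.06, -4.07, -3.86 and -4.05 with Diethylhexylphthalate and -4.61, -4.08, -3.79, -3.89 and -3.84 in controls (0.51 ± 0.14, adjusted p = 0.00693). Diethylhexylphthalate arrays lay within the control range, and those of Chlorendic Acid lay above both. miR-15b, a repressor of the survival factor Bcl2, measured -1.51, -1.27, -1.26 and -1.62 against -1.88, -1.86, -1.94 and -1.82 (0.46, adjusted p = 0.00693). Its control arrays, at -1.99, -1.73, -1.63, -1.64 and -1.66, reached up to the lower end of the Chlorendic Acid range.

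**Figure D2:**
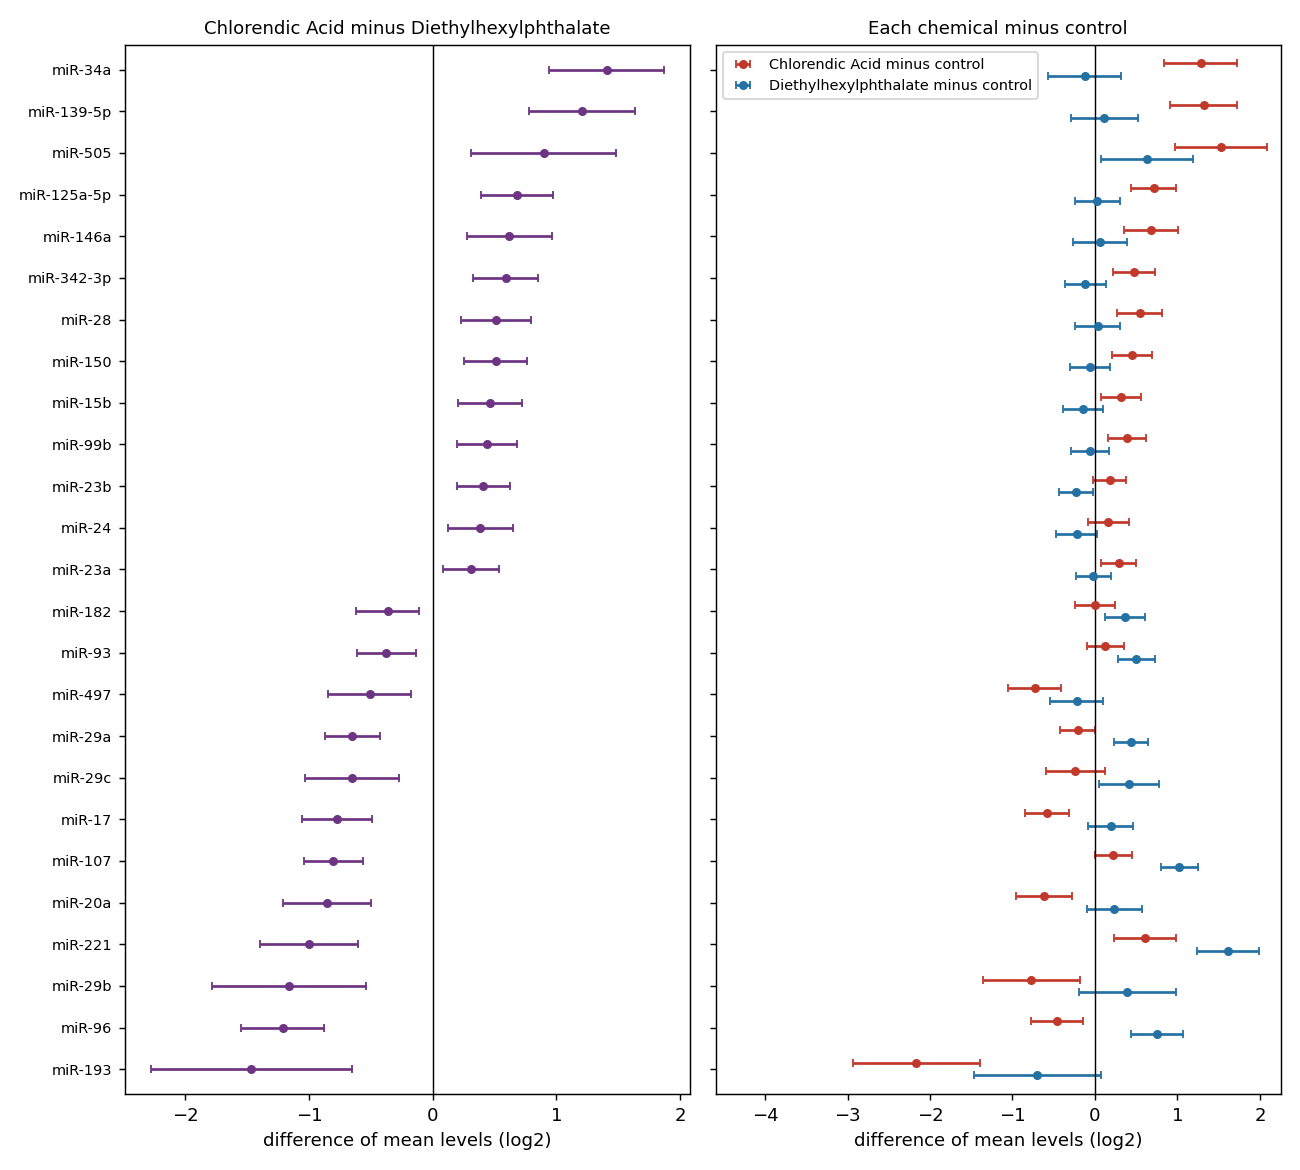
Differences of mean levels (log2) for the 25 miRNAs, with 95% intervals from limma. The left panel gives Chlorendic Acid minus Diethylhexylphthalate, and the right panel gives Chlorendic Acid and Diethylhexylphthalate each minus control, with the same arrays. For miR-34a and miR-139-5p the Diethylhexylphthalate intervals span 0, and for miR-107, miR-221 and miR-93 the largest distance from control is that of Diethylhexylphthalate.

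Of the miRNAs lower with Chlorendic Acid, miR-221 and miR-107 were those raised most by Diethylhexylphthalate. miR-221, a repressor of the cell cycle inhibitor p27 and abundant in human liver cancer, had levels of -4.03, -3.93, -3.21 and -3.67 with Chlorendic Acid, -2.84, -2.63, -2.69 and -2.68 with Diethylhexylphthalate and -4.17, -4.94, -4.26, -3.95 and -4.28 in controls. The treated groups did not overlap each other, and Diethylhexylphthalate arrays were above all control arrays. miR-221 differed by -1.003 ± 0.19 (adjusted p = 0.000233), that is, 2-fold less with Chlorendic Acid. It rose against control on both diets, by 0.61 with Chlorendic Acid and 1.61 with Diethylhexylphthalate (adjusted p = 0.011 and 3.53e-08). The Chlorendic Acid rise was not called without control replicate 2 or Chlorendic Acid replicate 3 (adjusted p up to 0.104). A second probe of miR-221 gave -0.99 for the direct difference. Its partner miR-222 was on the array but not detected often enough to test.

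miR-107 lies within the span of Pank1, the gene of a pantothenate kinase that starts coenzyme A synthesis (chr1:241750418-241750504, minus strand). Its levels were -0.77, -0.76, -0.89 and -0.61 in Chlorendic Acid livers, -0.023, 0, 0.15 and 0.044 in Diethylhexylphthalate livers and -1.40, -0.92, -0.89, -0.85 and -0.85 in control livers. The 4 Diethylhexylphthalate arrays were the highest of the 13, with a gap to Chlorendic Acid of more than the spread within any treated group. The difference was -0.80 ± 0.12 (adjusted p = 4.79e-06), and the second probe gave -0.98. Chlorendic Acid differed from control by 0.22 (adjusted p = 0.132), against 1.02 for Diethylhexylphthalate (adjusted p = 1.52e-08).

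miR-103, whose hairpin on chromosome 3 lies within the span of Pank2, differed less. It measured -1.93, -1.84, -2.001 and -1.76 with Chlorendic Acid and -1.63, -1.75, -1.56 and -1.71 with Diethylhexylphthalate, and -2.07, -2.15, -1.84, -1.92 and -1.87 in controls. The treated groups did not overlap, but the difference of -0.22 (95% interval -0.42 to -0.023) was not called (adjusted p = 0.104). Since miR-103 and miR-107 differ at 1 position, their probes may share signal, which was not tested.

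The miR-29 family, which restrains collagen and other matrix genes, was lower with Chlorendic Acid in all 3 members. Over all miRNAs, 9.3% were called lower. miR-29a had levels of 1.96, 2.03, 1.63 and 2.17 in Chlorendic Acid livers, 2.54, 2.56, 2.74 and 2.55 in Diethylhexylphthalate livers and 1.84, 2.30, 2.26, 2.22 and 2.18 in control livers. Its control arrays lay between the 2 diets apart from replicate 1, within the Chlorendic Acid range, and the difference was -0.65 ± 0.11 (adjusted p = 4.38e-05). miR-29c measured 0.14, 0.18, -0.084 and 0.71 against 0.87, 0.77, 1.18 and 0.72 (-0.65, adjusted p = 0.00953). miR-29b measured -3.02, -2.56, -3.49 and -1.56 against -1.37, -1.75, -1.22 and -1.63, and Chlorendic Acid replicate 4 fell among the Diethylhexylphthalate arrays. Its difference was -1.16 ± 0.31 (adjusted p = 0.0059), and -1.53 without that array. Both miR-29b and miR-29c lost the call without Chlorendic Acid replicate 3 (adjusted p = 0.0523 and 0.0647). As miR-29a and miR-29c differ at 1 of 22 positions, their probes may share signal, which was not tested.

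The distances from control were on opposite sides for this family. Chlorendic Acid differed from control by -0.21, -0.77 and -0.24 for miR-29a, miR-29b and miR-29c, of which miR-29b passed (adjusted p = 0.0417), a call lost in 6 of the 9 fits that left out 1 array. Diethylhexylphthalate differed by 0.44, 0.39 and 0.41, of which miR-29a passed (adjusted p = 0.00361). Without control replicate 1, the Chlorendic Acid differences of miR-29a and miR-29c also passed (-0.29 and -0.42, adjusted p = 0.0274 and 0.0348). The family is encoded as 2 pairs, with miR-29a and miR-29b 292 bases apart on chromosome 4 and miR-29b and miR-29c 448 bases apart on chromosome 13.

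Of 4 tested miRNAs with the miR-17 seed, which act downstream of MYC and promote the cell cycle, 3 were lower with Chlorendic Acid. The share called lower over all miRNAs was 9.3%. miR-17 had levels of -4.26, -3.92, -4.45 and -3.92 in Chlorendic Acid livers, -3.25, -3.60, -3.28 and -3.31 in Diethylhexylphthalate livers and -3.61, -3.39, -3.52, -3.79 and -3.46 in control livers. Chlorendic Acid arrays were all the lowest, Diethylhexylphthalate arrays overlapped controls, and the difference was -0.77 ± 0.14 (adjusted p = 9.73e-05). miR-20a, 372 bases from miR-17 on chromosome 15, measured -2.52, -2.29, -2.91 and -2.17 against -1.58, -1.86, -1.41 and -1.62 (-0.85 ± 0.17, adjusted p = 0.000386). Both fell with Chlorendic Acid relative to control, by 0.58 and 0.62 (adjusted p = 0.00137 and 0.00425), while Diethylhexylphthalate differed by 0.19 and 0.24 (adjusted p = 0.363 for both). The probes of miR-17 and miR-20a, which differ at 2 of 23 positions, may share signal, which was not tested.

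miR-93 lies within the span of Mcm7, a subunit of the replicative helicase, on chromosome 12. It measured -3.81, -3.47, -3.76 and -3.50 with Chlorendic Acid, -3.27, -3.33, -3.21 and -3.24 with Diethylhexylphthalate and -4.13, -3.93, -3.61, -3.54 and -3.61 in controls. The diets did not overlap, and the difference was -0.37 (adjusted p = 0.018). Here Diethylhexylphthalate was the diet that passed against control (0.50, adjusted p = 0.0017), and Chlorendic Acid differed by 0.13 (adjusted p = 0.387). The call was lost without Chlorendic Acid replicate 1 or 3. miR-106b had the same seed and differed by -0.32 (95% interval -0.84 to 0.20, adjusted p = 0.42).

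Other members of the same clusters were not called, and whether they differed from miR-17 or miR-93 was not tested. miR-92a, transcribed with miR-17, differed by 0.24 (95% interval -0.22 to 0.71), and miR-19a and miR-19b by -0.13 and -0.46 (adjusted p = 0.474, 0.751 and 0.267). The 95% interval of miR-19b was -1.01 to 0.10, which includes the difference of miR-17. miR-25, 120 bases from miR-93, differed by 0.071 (95% interval -0.21 to 0.35, adjusted p = 0.751). Over the 8 tested members of the miR-17-92 and related clusters, 3 were lower and none higher, with a median of -0.35. The shares over all miRNAs were 9.3% lower and 10.1% higher.

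miR-96 and miR-182, neighbours on chromosome 4 in a cluster known from sensory cells, were also lower with Chlorendic Acid. miR-96 measured -5.49, -5.48, -5.49 and -5.28 in Chlorendic Acid livers, -4.34, -4.23, -4.20 and -4.13 in Diethylhexylphthalate livers and -5.17, -5.07, -4.66, -4.97 and -5.01 in control livers. The 3 groups did not overlap: Chlorendic Acid was at or near the floor, control above it and Diethylhexylphthalate above both. The difference was -1.21 ± 0.16 (adjusted p = 2.79e-06), and the second probe gave -0.93. miR-96 was called in opposite directions against control, by -0.46 with Chlorendic Acid and 0.75 with Diethylhexylphthalate (adjusted p = 0.0245 and 0.00112). The Chlorendic Acid call against control was lost without control replicate 3 or Chlorendic Acid replicate 1, 2 or 3 (adjusted p up to 0.0823).

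miR-182 was at the floor on all Chlorendic Acid and control arrays and not well above background on any of them. It measured -5.10, -5.07, -5.49 and -4.86 with Diethylhexylphthalate, where 2 of 4 arrays detected it. The limma difference of -0.36 (adjusted p = 0.0345) depends on the floor, and no fold is given. The call held without Diethylhexylphthalate replicate 3 and was lost without any other of the 8 arrays, and miR-183, the other member of the cluster, was too rarely detected to test.

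miR-193 had the largest difference among the miRNAs called lower, with an uneven response among animals. Its levels were -5.49, -4.91, -5.26 and -3.17 with Chlorendic Acid, -3.20, -3.18, -3.18 and -3.41 with Diethylhexylphthalate and -2.36, -2.04, -2.82, -3.15 and -2.33 in controls. Chlorendic Acid replicates 1, 2 and 3 were far below every other array, and replicate 4 was level with Diethylhexylphthalate. The difference was -1.47 ± 0.40 (adjusted p = 0.00693), and -1.98 without replicate 4. Against control it was -2.17 for Chlorendic Acid and -0.70 for Diethylhexylphthalate (adjusted p = 0.000104 and 0.228). The other arm of the same hairpin, miR-193*, differed between the diets by -0.12 (95% interval -0.47 to 0.24), and miR-365 by -0.082 (95% interval -0.36 to 0.20). A second probe of miR-193 gave -0.68.

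miR-497 shares a seed with miR-15b but was lower with Chlorendic Acid. It measured -2.57, -2.40, -2.65 and -2.12 against -1.997, -1.88, -1.73 and -2.10, with controls at -2.21, -1.63, -1.45, -1.62 and -1.62. The diets were adjacent without overlap, and the difference was -0.51 ± 0.16 (adjusted p = 0.0243), a call that was lost without Chlorendic Acid replicate 1 or 3 or Diethylhexylphthalate replicate 2 or 3, and with slide as a fixed block (adjusted p = 0.0676). miR-195, 256 bases from miR-497 on chromosome 10, differed by 0.060 (95% interval -0.23 to 0.35). miR-16 and miR-322, of the same seed, differed by 0.16 and -0.21 (adjusted p = 0.391 and 0.42). The 5 tested miRNAs of this seed thus gave 1 higher, 1 lower and 3 not called, with a median of 0.060. Over all miRNAs, 10.1% were called higher and 9.3% lower.

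**Figure D3:**
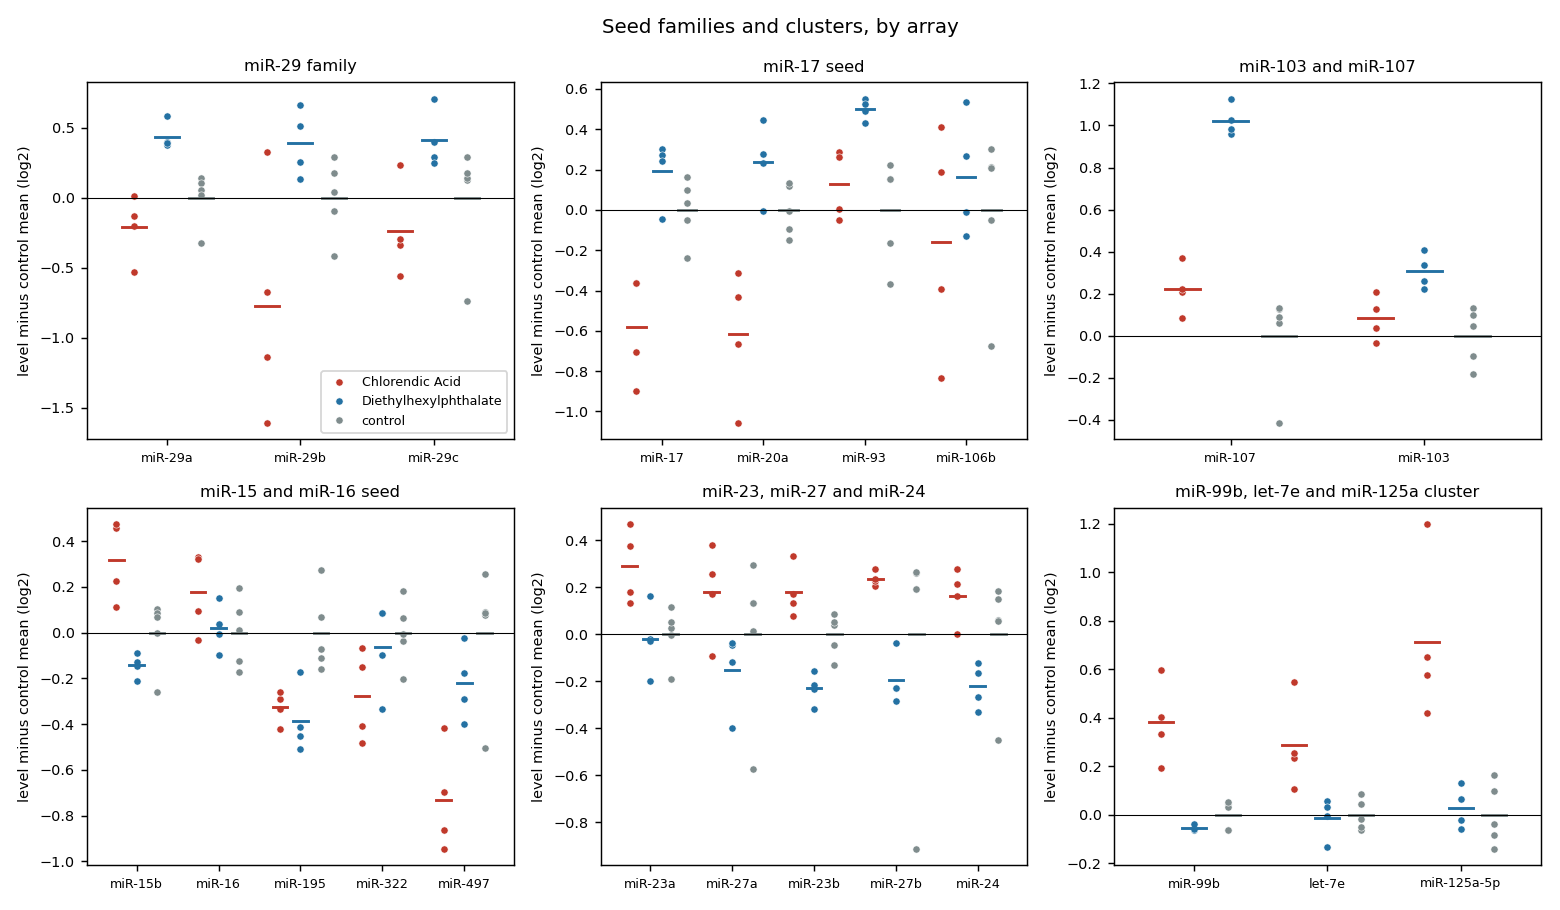
Level minus the control mean (log2) on each array, with group means as bars, for 6 seed families and genomic clusters. Chlorendic Acid (n = 4) is left of Diethylhexylphthalate (n = 4), and control (n = 5) is on the right of each set. The miR-29 family and miR-17 and miR-20a are below Diethylhexylphthalate with Chlorendic Acid, whereas miR-15b and miR-497 of 1 seed differ in opposite directions.

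Some miRNAs were called against control with both chemicals, and most of these were not called between the diets. miR-200a and miR-200b, which maintain the epithelial state by repressing Zeb1 and Zeb2, are the clearest. miR-200b measured -3.44, -3.80, -3.51 and -3.46 with Chlorendic Acid, -3.53, -3.65, -4.17 and -3.64 with Diethylhexylphthalate and -4.48, -4.95, -4.58, -4.61 and -4.72 in controls. Both diets were above all control arrays and overlapped each other. The difference between the diets was 0.19 (95% interval -0.29 to 0.67, adjusted p = 0.622), beside 1.12 and 0.92 against control (adjusted p = 0.000354 and 0.00412).

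miR-200a measured -4.13, -4.31, -4.27 and -3.87 with Chlorendic Acid and -4.34, -4.37, -4.53 and -4.43 with Diethylhexylphthalate. The arrays did not overlap, yet the difference of 0.27 (95% interval -0.19 to 0.74) was not called (adjusted p = 0.434). The intervals of miR-200a and miR-200b leave room for differences of up to 0.74 and 0.67, so equal levels were not shown. miR-429, transcribed with them, was detected on 4 Chlorendic Acid arrays and 1 Diethylhexylphthalate array, close to the floor, and differed by 0.15 (adjusted p = 0.486).

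The other miRNAs called with both chemicals had smaller shifts. miR-375 differed from control by 0.38 with Chlorendic Acid and 0.44 with Diethylhexylphthalate, and between the diets by -0.059 (95% interval -0.27 to 0.15). miR-128 differed from control by 0.47 and 0.31 in the same order of diets, and between them by 0.16 (95% interval -0.033 to 0.36). For miR-25 these values were 0.46, 0.39 and 0.071, and for miR-152 0.27, 0.35 and -0.074. miR-185, at the floor in all controls, differed between the diets by -0.12 (95% interval -0.25 to 0.0043). miR-375 and miR-128 were each detected on 2 of 5 control arrays. The sizes of the shifts of these 3 miRNAs from control therefore depend on the floor. miR-99a was the called miRNA lower on both diets (-0.36 and -0.40 against control), with a difference between them of 0.044 (95% interval -0.20 to 0.29). Several of these calls against control rested on single arrays. Of the 9 fits that left out 1 array, the Diethylhexylphthalate call was lost in 5 for miR-200a and miR-25, in 4 for miR-128 and in 2 for miR-152 and miR-99a, with control replicate 1 among them for miR-200a and miR-25 (adjusted p = 0.0829 and 0.122). The Chlorendic Acid call was lost in 5 for miR-185 and in 4 for miR-152.

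**Figure D4:**
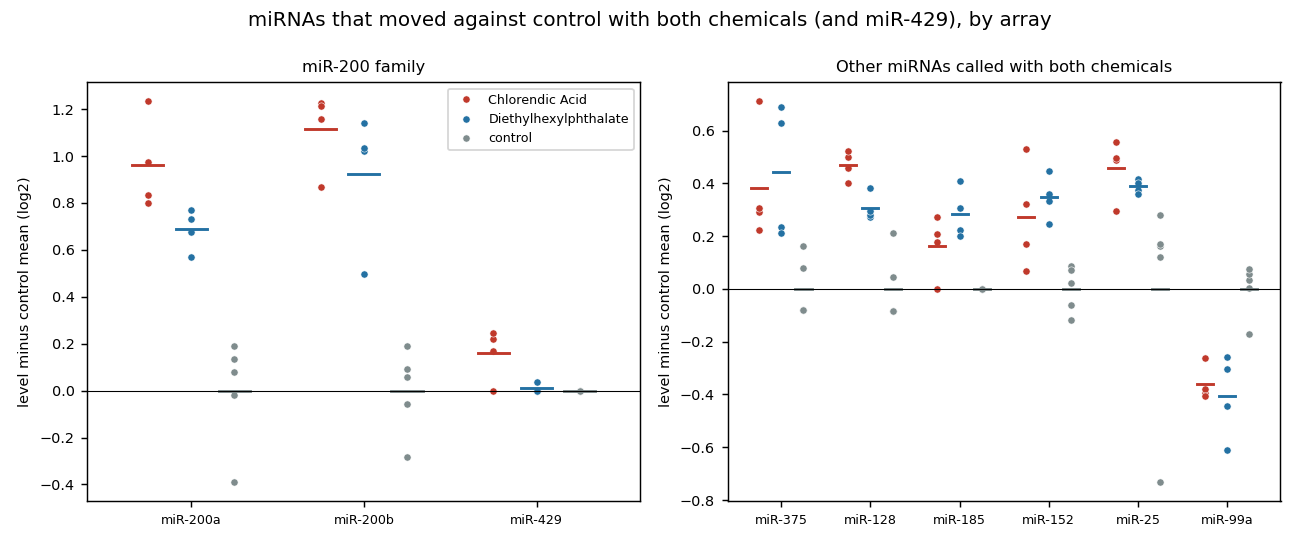
Level minus the control mean (log2) on each array for the miR-200 family (left) and for other miRNAs called against control with both chemicals (right), with group means as bars. Chlorendic Acid (n = 4) is left of Diethylhexylphthalate (n = 4), and control (n = 5) is on the right of each set. Both diets lie above control for miR-200a and miR-200b, and below it for miR-99a.

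The hepatocyte list of 8 tested miRNAs held no call between the diets, with a median of -0.051. Beside 19.4% called over all miRNAs, a list of this length is too short for an absence of calls to be read as a result. miR-122 measured 6.28, 6.28, 6.57 and 6.32 in Chlorendic Acid livers, 5.999, 6.07, 6.08 and 6.10 in Diethylhexylphthalate livers and 6.73, 6.07, 6.41, 6.49 and 6.30 in control livers. The diets did not overlap, and the difference of 0.30 ± 0.11 missed the threshold narrowly (adjusted p = 0.0504). It passed with 6 of the 14 other ways of processing. Against control, miR-122 was called lower with Diethylhexylphthalate (-0.34, adjusted p = 0.0239), but that call ended when Diethylhexylphthalate replicate 1, its replicate 2, control replicate 1 or control replicate 4 was left out. The summed linear level of the 8 hepatocyte miRNAs was 83.1 to 101.1 with Chlorendic Acid, 70.9 to 75.9 with Diethylhexylphthalate and 75.3 to 113.2 in controls. Most of this sum is miR-122, so it largely repeats the uncalled difference of that miRNA and does not describe the list. miR-21, often raised in injured liver, differed by 0.0041 (95% interval -0.37 to 0.38), with wide overlap (2.06, 2.43, 2.06 and 2.78 against 2.51, 2.12, 2.69 and 1.997).

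Both miR-203 and miR-324-3p fell with Chlorendic Acid against control but were not called between the diets. miR-203 measured -4.72, -4.70, -4.97 and -4.19 against -4.11, -4.48, -3.99 and -4.29 (-0.43, adjusted p = 0.0928), and miR-324-3p measured -4.29, -3.75, -5.03 and -1.90 against -1.88, -2.61, -2.44 and -2.80 (-1.31, adjusted p = 0.125). In both, Chlorendic Acid replicate 4 lay above the other 3. Without it the differences were -0.58 and -1.92, and both passed (adjusted p = 0.0224 and 0.0169). Over the 12 miRNAs called lower with Chlorendic Acid, replicate 4 was the array nearest the Diethylhexylphthalate mean for 8, and over the 13 called higher for 1.

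Lists of miRNAs from other liver cells, the leukocyte list apart, held no call, beside 19.4% called over all miRNAs. They are too short for a share of 0 to be read as a result. None of 7 tested stellate and mesenchymal miRNAs was called (median 0.051), nor either of 2 endothelial ones (median 0.11). miR-451 of red cells differed by 0.34 (95% interval -0.19 to 0.86, adjusted p = 0.417). The summed level of the 7 stellate and mesenchymal miRNAs was 0.9499 to 1.24 in Chlorendic Acid livers and 0.835 to 1.04 in Diethylhexylphthalate livers, against 0.913 to 1.12 in control livers. No member was called among the 8 of the let-7 family (median -0.0075), the 5 of the miR-30 family (-0.074), the 2 each of the miR-26 (0.12) and miR-148 and miR-152 (-0.014) families, or the 1 tested of the miR-181 family (0.19).

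The miR-196 family, from the Hox clusters, showed a wide spread. miR-196c measured -3.26, -3.44, -2.99 and -2.16 with Chlorendic Acid, -2.09, -1.10, -1.63 and -1.02 with Diethylhexylphthalate and -4.46, -1.50, -1.53, -1.80 and -1.94 in controls. The diets did not overlap, and the difference of -1.50 had a 95% interval of -2.72 to -0.29 (adjusted p = 0.0687). miR-196a and miR-196b differed by -1.22 and -1.04 with overlap (adjusted p = 0.225 and 0.256). These 3 were picked after their values were seen. They differ from each other at 1 of 22 positions, so their probes may share signal, which was not tested.

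Of the 104 miRNAs that were not called, 92 had a 95% interval that stayed within 1 log2 unit on both sides, and 46 within 0.5. Across the 9 groups of the series, Chlorendic Acid had the highest mean for 11 of the 13 miRNAs called higher and the lowest for 8 of the 12 called lower. Diethylhexylphthalate had the highest mean for 7 of those 12 and the lowest for 3 of the 13. The miRNAs were called on the difference between these diets in the same arrays, which by itself favours such ranks. The pair was also chosen as the chemicals with the most changed miRNAs, so these ranks are a description only. As to base composition, the median GC content of the mature sequences was 50% for 12 matched miRNAs called higher, 47.8% for the 12 called lower and 45.5% for all 109 with a sequence.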

How the data were processed

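The authors labelled liver total RNA with Cy3 and hybridized it to Agilent 1-colour rat miRNA arrays. Per the file headers, Feature Extraction 10.5.1.1 made the deposited scanner files, whose spot intensity is on a linear scale. For 167 miRNAs the authors also deposited log2 values. For 99.4% of 6293 of them, subtraction of a constant per array from the log2 total gene signal gave the same number within 0.01. The sources used here do not say how the constant was set, and these values served as an alternative.

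Outlier spots (2.17% to 6.76%) were dropped, and the other spots of each of 938 probes were averaged and scaled to the array's 75th percentile (424 to 1086 signal units), taken over 137 probes that no array failed to detect. The 5th percentile of all detected values was the floor for lower ones (16.7 signal units on the median array), before the log2 was taken. Detection required over 50% of a probe's spots to be well above background, and a miRNA took its brightest probe. No spot was saturated. All 38 arrays in 9 groups were fitted with limma 3.58.1 (lmFit, eBayes) in R 4.3.3, with Benjamini-Hochberg adjustment over 129 miRNAs per comparison. Simulated data tested the code. Host genes are RefSeq gene spans (GRCr8) that contain the hairpin, without regard to strand, and 109 of 129 miRNAs were matched to a mature sequence.

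Named are the up to 12 higher and 12 lower miRNAs with the largest called difference and all Chlorendic Acid arrays on 1 side of the Diethylhexylphthalate mean, called members of 21 fixed lists, 18 fixed miRNAs, and those called against control with both chemicals. The pair, the lists and these rules were chosen with earlier results of these data known. The number of arrays and the signal over background limit the precision, and nothing says which rats shared a cage. The chemicals were fed in the diet, so rats of the same cage shared a diet. Without cage labels, an effect of cage cannot be told apart from that of diet. Same-numbered arrays of the 2 diets deviated in opposite directions (correlations -0.59 to -0.12). The values thus show no pairing by replicate number, and whether the numbers pair animals by design is not known. Alternatives are named in the closing section.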

Additional observations from a re-analysis of the deposited data

Results flagged for a closer look

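Among 113 sets of 4 or 5 arrays examined for the named miRNAs, 18 held 1 array far from the others of its group. Chance alone marks about 1 set in 20, and the sets share arrays, so the marks are not independent. Of the 18, 9 concern control replicate 1, which was the lowest control array each time. It stood at -1.40 for miR-107, 1.84 for miR-29a, -2.08 for miR-146a, -1.99 for miR-15b, -0.26 for miR-29c, -2.21 for miR-497, -0.91 for miR-24, -3.24 for miR-25 and 0.35 for miR-99a. For miR-146a the other 4 control arrays were between -1.16 and -0.96.

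With Chlorendic Acid, replicate 4 was the highest array for miR-96 (-5.28, beside 3 arrays at or near the floor) and for miR-375 (-4.70), and replicate 3 was the highest for miR-122 (6.57, against 6.28 to 6.32 on the others). With Diethylhexylphthalate, replicate 3 was the highest for miR-29a (2.74), miR-28 (-3.86) and miR-146a (-1.11), replicate 2 the lowest for miR-17 (-3.60), replicate 4 the lowest for miR-193 (-3.41), and replicate 1 the highest for miR-429 (-5.46, the others at the floor). In miR-29a, miR-17 and miR-28 the Chlorendic Acid arrays stayed clear of the array that stood apart.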

How the results depend on the processing

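The count of 25 between the diets was within 1.5 times of itself in 13 of 14 other ways of processing (17 to 34) and was 8 with normexp. Leaving out 1 array gave 16 to 27. The count of 38 for Chlorendic Acid against control became 7 with normexp, 18 over miRNAs detected on all 38 arrays, 21 over those detected on every array compared and 21 with only the groups compared, and 26 to 44 without 1 array. The count of 19 for Diethylhexylphthalate against control became 7 with scaling over all probes, 2 with normexp, 29 with total gene signal, 11 and 12 with the stricter detection filters and 11 with slide as a fixed block, and 8 to 18 without 1 array (8 without its replicate 1, 12 without its replicate 2). Fewer miRNAs are tested under the detection filters, and the cause of the other shifts was not tested. Normexp moved the median difference against control to -0.30 for Chlorendic Acid and -0.21 for Diethylhexylphthalate, and total gene signal moved both to 0.12.

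Of the 25 calls, 16 passed in all fits that left out 1 array, and 4 (miR-107, miR-29a, miR-20a and miR-146a) in those and every other fit run. The 9 that lost a call were miR-29b, miR-29c, miR-99b, miR-93, miR-505, miR-497, miR-24, miR-23a and miR-182. With the replicate block the count was 27, with 24 of the 25 kept. No array correlated best with its own number, so the values give no basis for that block. For control the counts were 35 (Chlorendic Acid) and 20 (Diethylhexylphthalate) with the replicate block. Signs reversed with normexp for miR-99b (-0.068), miR-128 (-0.11), miR-200a (-0.048), miR-429 (-0.14) and miR-200b (-0.039), with scaling over all probes for miR-152 (0.00087) and miR-375 (0.016), and with quantile normalization for miR-152 (0.19). Further reversals occurred with total gene signal for miR-25 (-0.0037), miR-99a (-0.021) and miR-21 (-0.12), and for miR-21 with the mean of probes (-0.044), the authors' table (-0.036) and the slide block (-0.029). Without 1 array, the ranges were -0.17 to 0.023 for miR-375, -0.024 to 0.093 for miR-99a and -0.15 to 0.13 for miR-21. Apart from miR-99b, none of the reversed differences was called. Few arrays and, for miRNAs near the floor, low signal over background limit the precision.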

Other observations

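Several further miRNAs, chosen after their values were seen, had differences between the diets that missed the threshold. miR-186 measured -3.63, -3.56, -3.33 and -3.41 in Chlorendic Acid livers, -4.12, -3.87, -3.79 and -4.17 in Diethylhexylphthalate livers and -4.76, -4.16, -3.92, -3.80 and -3.88 in control livers. Its difference was 0.50 (adjusted p = 0.0507), and it was called against control with Chlorendic Acid (0.62, adjusted p = 0.00664). miR-143, a miRNA of smooth muscle and mesenchymal cells, measured -0.94, -0.62, -0.69 and -0.61 against -1.15, -1.15, -0.92 and -1.28 (0.41, adjusted p = 0.0543). Its genomic neighbour miR-145 differed by 0.021 (95% interval -0.47 to 0.52). miR-22 measured 2.14, 2.47, 2.34 and 2.33 against 1.63, 1.88, 2.16 and 1.73 (0.47, adjusted p = 0.0696). On the lower side, miR-30b-5p measured -1.50, -1.13, -1.80 and -0.56 against -0.46, -0.87, -0.26 and -0.88 (-0.63, adjusted p = 0.0655), with Chlorendic Acid replicate 4 within the Diethylhexylphthalate range.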
